A study of Mus musculus with 2 samples.

Results

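GATA4 occupied sites (OS) in adult mouse liver were examined at 8 genes of hydroxysteroid dehydrogenases, Hsd17b2, Hsd17b4, Hsd17b6, Hsd17b7, Hsd17b11, Hsd17b12, Hsd17b13 and Hsd11b1. An OS was assigned to a gene by position alone, when its midpoint lay in the gene body or within 50 kb of it. This rule found 13 of the 4409 OS that a pair of peak callers had in common, at 7 of the 8 genes, and Hsd17b7 had none. The 8 genes were chosen by name with the peaks near Hsd17b2 already known, so that the presence and number of OS at them are given as a description and were not tested.

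Binding of the transcription factor GATA4 was measured by chromatin immunoprecipitation and sequencing (ChIP-seq) in whole liver from C57BL/6 x Sv129 mice aged 2 to 3 months. Chromatin was precipitated with the GATA4 antibody C-20, and input DNA of the liver served as background. The labels list 1 ChIP sample and 1 input sample. By the methods, the ChIP was made on biological replicates from whole livers of several mice, and the peaks kept had concordant ranks in the replicates. The labels do not say whether the listed samples join the reads of these replicates, and they are treated here as pooled. The 3 peak lists analysed here hold 4811 peaks called by SPP, 5867 called by MACS2 and the 4409 common OS, which carry the SPP coordinates. Since every list gives 1 set of peaks for 1 group, no value has a replicate error and no test between conditions was possible. The depth behind each OS is unknown, because every peak carries the same score of 1000, and the only graded value is the number of a peak in its list. For the reproducibility step the methods order SPP peaks on signal and MACS2 peaks on p-value, but no header says whether the deposited numbers keep that order. A low number is therefore used below only as a position near the head of the list.

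Hydroxysteroid dehydrogenases move hydrogen between a hydroxyl and a keto group of a steroid and thereby switch steroid hormones on or off before they reach their receptors. Several members of the family work on other substrates, such as fatty acyl chains, sterol intermediates and retinoids, and the liver is a main place of steroid inactivation. GATA factors are zinc finger proteins that recognise the sequence WGATAR, in which W is A or T and R is A or G. Whole liver mixes hepatocytes with endothelial, Kupffer, stellate and bile duct cells, and an OS from whole tissue does not tell in which of them GATA4 was bound. Among marker genes of these cell types, an OS lay at 7 of 7 of endothelial cells (among them Stab2 and Lyve1). For hepatocytes the count was 5 of 7 (among them Alb and Hnf4a). The counts were 1 of 6 for Kupffer cells, 0 of 5 for cholangiocytes and 0 of 6 for stellate cells. Over all 22380 protein-coding genes the share was 27.7%, and lists this short allow no more than a count. The cell type behind the OS described here was not tested.

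The sequences that carry the result are those around the WGATAR matches of the OS. They are read from the plus strand of mm9, with the match in capitals. A match on the minus strand appears as its reverse complement, so that AGATAA reads TTATCT there. At Hsd17b2 3 of the 4 OS held a match, and the stretches show that each had a different surrounding.
Hsd17b2 upstream OS, no. 538, chr8:120219735-120219780: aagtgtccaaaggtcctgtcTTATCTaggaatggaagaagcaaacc
Hsd17b2 intron 1 OS, no. 2694, chr8:120238717-120238762: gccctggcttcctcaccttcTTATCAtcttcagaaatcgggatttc
Hsd17b2 downstream OS, no. 1508, chr8:120325846-120325891: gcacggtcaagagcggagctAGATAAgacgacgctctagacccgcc
At the neighbouring genes Hsd17b13 and Hsd17b11 the match lay close to where transcription starts (TSS, transcription start site), on its upstream side.
Hsd17b13 promoter OS, no. 277, chr5:104406517-104406562: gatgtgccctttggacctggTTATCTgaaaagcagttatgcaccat
Hsd17b11 promoter OS, no. 3543, chr5:104450998-104451043: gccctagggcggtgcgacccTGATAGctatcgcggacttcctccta
At Hsd17b6 and Hsd11b1 the OS lay up to many kilobases from the 5′ end of the gene, and the OS no. 652 of Hsd17b6 held a pair of matches close together.
Hsd17b6 OS no. 652, chr10:127407015-127407097: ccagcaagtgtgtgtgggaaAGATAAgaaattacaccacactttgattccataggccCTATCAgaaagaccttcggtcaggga
Hsd17b6 OS no. 817, chr10:127382935-127382980: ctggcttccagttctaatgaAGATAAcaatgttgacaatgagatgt
Hsd17b6 OS no. 4127, chr10:127442117-127442162: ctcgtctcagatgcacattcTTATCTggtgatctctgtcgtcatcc
Hsd11b1 internal OS, no. 719, chr1:195067816-195067861: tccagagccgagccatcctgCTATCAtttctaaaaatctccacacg
Hsd11b1 downstream OS, no. 617, chr1:195037729-195037774: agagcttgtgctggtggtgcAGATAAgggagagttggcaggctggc

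The 13 OS made 15 gene and site pairs, since the OS no. 277 and no. 3543 lay within 50 kb of both Hsd17b11 and Hsd17b13. For comparison, 6194 protein-coding genes, the 27.7% given above, had at least 1 OS by the same rule. For 9 of the 13 OS the nearest TSS of any protein-coding gene was that of the member itself. The other 4 OS lay nearer to the TSS of Mphosph6, Sdr9c7, Alkbh3 or Traf3ip3, which are not hydroxysteroid dehydrogenases studied here. Only 3 OS lay inside a member gene, and each of them was in intron 1.

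**Figure D1:**
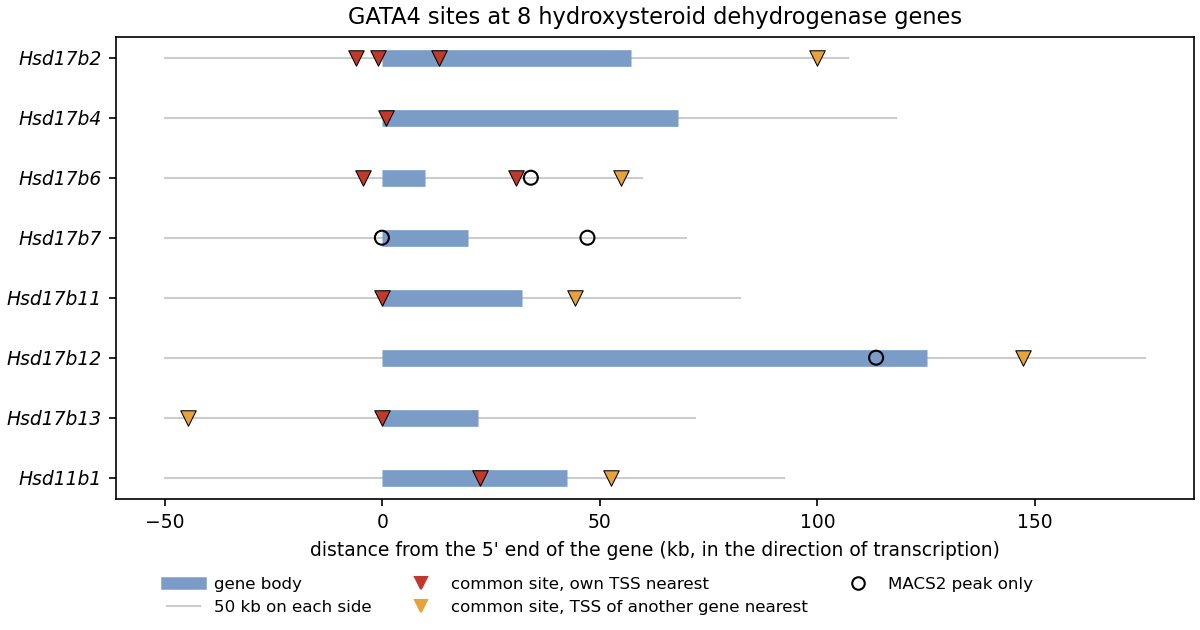
Map of the OS at the 8 genes, with the distance from the 5′ end of each gene in kb on the horizontal axis and 1 gene per row. Blue bars are gene bodies, triangles are common OS (red where the gene's own TSS is the nearest, orange where that of another gene is), and open circles are peaks called by MACS2 only. Hsd17b2 holds 4 triangles and Hsd17b7 only open circles.

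Hsd17b2 encodes the enzyme that oxidises estradiol to estrone and testosterone to androstenedione and so inactivates both hormones. The gene spans chr8:120225846-120282929 on the plus strand, with 57084 bp, 5 exons and a single annotated TSS. It had 4 OS, as many as or more than any other member, and 1.05% of protein-coding genes (234 genes) had 4 or more.

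The first OS at Hsd17b2 (no. 538, chr8:120219654-120219852, 199 bp) had its midpoint 6093 bp upstream of the TSS, outside any protein-coding gene. Its WGATAR match, AGATAA on the minus strand, lay 4 bp from the midpoint. This OS stood at 12.2% of the common list and at 8.86% of the MACS2 list, nearer to the head than the other OS of the gene. Its whole sequence is shown because it also held AGGTCA, the sequence read by many nuclear receptors as 1 arm of their sites, which began 26 bases from the start of the WGATAR match. Both are in capitals here.
Hsd17b2 upstream OS, whole, no. 538, chr8:120219654-120219852: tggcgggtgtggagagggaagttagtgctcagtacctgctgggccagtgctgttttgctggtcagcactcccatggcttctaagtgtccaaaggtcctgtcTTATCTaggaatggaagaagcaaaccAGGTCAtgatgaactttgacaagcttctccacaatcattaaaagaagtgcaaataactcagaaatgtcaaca

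The second OS (no. 4387, chr8:120224684-120225003, 320 bp) lay 1003 bp upstream of the TSS and was the closest of the 4 to it. It stood near the end of the common list, at 99.5%, and in the middle of the MACS2 list, at 51.9%, the widest gap between both lists among the 13 OS. It held no WGATAR and no GATA on either strand, and the matching MACS2 peak of 343 bp held none either. The 500 bp around the midpoint of the OS held 1 GATA and no WGATAR. This OS did hold TGANTCA, the sequence bound by AP-1 factors, which reads the same on both strands. The stretch is shown with that match in capitals.
Hsd17b2 proximal OS, no. 4387, chr8:120224959-120224995: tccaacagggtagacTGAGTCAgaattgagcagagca
The window from 250 bp upstream to 50 bp downstream of the Hsd17b2 TSS, in contrast, held 1 WGATAR match, at 104 to 99 bp upstream of the TSS, and no OS overlapped that window.

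The third OS (no. 2694, chr8:120238675-120238823, 149 bp) lay in intron 1, 12903 bp downstream of the TSS, and was the narrowest of the 13. It held TGATAA at 10 bp from its midpoint and stood at 61.1% of the common list. These 3 OS, which had the Hsd17b2 TSS as the nearest, spanned 19 kb, with 5.1 kb between the first pair of midpoints and 13.9 kb between the second. The fourth OS (no. 1508, chr8:120325769-120325971, 203 bp) lay 42.9 kb beyond the 3′ end of Hsd17b2 and 41 bp upstream of the TSS of Mphosph6, a gene of RNA processing on the minus strand. It differed in composition from the other 3, with 63.5% GC and 23 CpG against 46.2% to 48.3% GC and 1 to 8 CpG. By nearest TSS, therefore, Hsd17b2 had 3 OS and Mphosph6 had the fourth.

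Hsd17b6 and Hsd11b1 encode enzymes that work in the direction of active hormone, Hsd17b6 by oxidising an inactive androgen metabolite and Hsd11b1 by regenerating active glucocorticoid from its inert keto form in liver. Hsd17b6 (chr10:127427997-127437734, minus strand, 9738 bp, 5 exons) is the shortest of the 8 genes and lies beside a cluster of retinol dehydrogenase genes that belong to the same enzyme superfamily. It had 3 OS, none of them in the gene body.

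The OS no. 4127 (chr10:127441995-127442314, 320 bp) was 4420 bp upstream of the Hsd17b6 TSS and held AGATAA at 15 bp from its midpoint. It stood at 93.6% of the common list and 92.3% of the MACS2 list, close to the end of both. The OS no. 652 (chr10:127406959-127407135, 177 bp) lay 30.7 kb downstream of the TSS, past the 3′ end of the gene, and stood at 14.8% and 18.5%. It held 3 WGATAR matches, more than any other of the 13 OS, with 37 and 56 bp from the start of each to the start of the next. The third OS (no. 817, chr10:127382809-127382995, 187 bp) lay 45.1 kb past the 3′ end. It was 54.8 kb from the TSS of Hsd17b6 and 42.4 kb from that of Sdr9c7. It held AGATAA and a close pair of matches to TTGCNNAA, the sequence read by C/EBP factors. The pair began 115 and 105 bp from the start of the WGATAR match, and no other member OS held this sequence.
Hsd17b6 OS no. 817, first of both, chr10:127382825-127382862: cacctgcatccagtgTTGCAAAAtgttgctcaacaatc
Of the 3 OS of Hsd17b6, the one closest to the TSS was thus the farthest down both lists.

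Hsd11b1 (chr1:195047824-195090248, minus strand, 42425 bp) has 6 annotated TSS, and it is known to be read from a distal promoter and from a promoter further inside the gene, which is the main one in liver. The OS no. 719 (chr1:195067743-195067926, 184 bp) lay in intron 1 of the longest transcript, 22414 bp from the distal TSS. Its midpoint was 43 bp upstream of another annotated Hsd11b1 TSS and 216 bp upstream of a further one, so that it sat at internal starts of the gene. It held TGATAG at 4 bp from the midpoint and AGGTCA, which begins 52 bp from the start of the WGATAR match. It stood at 16.3% of the common list and 20% of the MACS2 list. No OS overlapped the window around the distal TSS, which held no WGATAR.

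The OS no. 617 (chr1:195037630-195037852, 223 bp) lay 10.1 kb past the 3′ end of Hsd11b1 and 9.8 kb upstream of the TSS of Traf3ip3. It stood at 14% of the common list and at 6.95% of the MACS2 list. It held AGATAA at 10 bp from its midpoint and AGGTCA at 2 places. It also held a composite of CTG followed after 7 to 9 bases by GATAA, the arrangement known from elements that GATA factors share with TAL1 in blood and endothelial cells. The composite is shown in capitals, and the OS no. 277 at Hsd17b13 was the only other of the 13 with one.
Hsd11b1 downstream OS, no. 617, chr1:195037724-195037769: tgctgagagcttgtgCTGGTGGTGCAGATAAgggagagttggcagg
Hsd17b13 promoter OS, no. 277, chr5:104406522-104406566: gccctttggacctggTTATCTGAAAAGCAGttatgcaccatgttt
Of all 4409 OS, 10% held this composite, against 2.1% of equally wide windows shifted 5000 bp rightward.

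Hsd17b11 and Hsd17b13 encode closely related proteins of lipid droplets, the second of them abundant in liver. They lie side by side on the minus strand of chromosome 5, Hsd17b13 at chr5:104384459-104406429 and Hsd17b11 at chr5:104418781-104450938, with 12.4 kb between them. Each had 1 OS at its own promoter, and the midpoints of these OS were 44.4 kb apart. The OS no. 277 (chr5:104406442-104406697, 256 bp) was centred 140 bp upstream of the Hsd17b13 TSS and had the lowest number of the 13, at 6.28% of the common list and 5.90% of the MACS2 list. It held AGATAA at 113 to 108 bp and TGATAA at 202 to 197 bp upstream of the TSS, 89 bp from start to start. AGGTCA was present as well. The whole OS is shown, with the 3 matches in capitals.
Hsd17b13 promoter OS, whole, no. 277, chr5:104406442-104406697: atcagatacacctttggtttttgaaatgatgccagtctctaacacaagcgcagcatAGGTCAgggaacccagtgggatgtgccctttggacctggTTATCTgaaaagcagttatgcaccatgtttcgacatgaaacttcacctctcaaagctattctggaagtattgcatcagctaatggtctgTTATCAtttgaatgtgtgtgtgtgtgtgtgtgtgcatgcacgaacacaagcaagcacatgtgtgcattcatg

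The OS no. 3543 (chr5:104450858-104451177, 320 bp) covered the Hsd17b11 TSS and was centred 79 bp upstream of it. It held TGATAG at 85 to 80 bp upstream of the TSS. In contrast to the Hsd17b13 promoter OS, it stood late in both lists, at 80.4% and 78.1%, and it had 55.9% GC and 16 CpG against 44.1% and 3.

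Hsd17b4, Hsd17b7 and Hsd17b12 encode enzymes that work mainly outside of hormone metabolism. Hsd17b4 is the multifunctional protein of peroxisomal fatty acid oxidation and bile acid synthesis, Hsd17b7 takes part in cholesterol synthesis, and Hsd17b12 elongates very long fatty acids. Hsd17b4 (chr18:50287855-50355923, plus strand, 68069 bp, 24 exons) had 1 OS, no. 289 (chr18:50288462-50288676, 215 bp), in intron 1. It lay 714 bp downstream of the 5′ end of the gene and 421 bp from the nearest of its 4 annotated TSS. It stood at 6.55% of the common list and 5.91% of the MACS2 list, close to the Hsd17b13 promoter OS in both. It held AGATAG at 34 bp from the midpoint, AGGTCA and TGANTCA, and it was the only OS of the 13 with no CpG. The next common OS beyond 50 kb of Hsd17b4 was 934.6 kb away, the longest such distance among the 8 genes.

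Hsd17b12 (chr2:93872846-93998121, minus strand, 125276 bp, 11 exons), the longest of the 8 genes, had 1 OS, no. 960 (chr2:93850735-93850955, 221 bp). This OS lay 22 kb past the 3′ end and 147.3 kb from the 5′ end of Hsd17b12, in the first exon of Alkbh3, 42 bp from its TSS. Alkbh3 encodes an enzyme that removes alkyl groups from nucleic acids. The OS had 67.0% GC and 16 CpG and held no WGATAR and no GATA. The matching MACS2 peak of 716 bp held 1 GATA and no WGATAR. By nearest TSS, Hsd17b12 thus had no OS of its own.

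Hsd17b7 (chr1:171879666-171899372, minus strand, 19707 bp, 9 exons) had no common and no SPP peak, and the nearest common OS was 526.8 kb away. It had 2 MACS2 peaks. The first (no. 4980, chr1:171899217-171899772, 556 bp) was centred 122 bp upstream of the TSS, covered the TSS and held AGATAG at 86 to 81 bp upstream of it, within 1 bp of the position of the match at Hsd17b11. The second (no. 5689, chr1:171851857-171852606, 750 bp) lay 47.1 kb downstream of the TSS and held 4 WGATAR matches. The TSS nearest to it, 6.5 kb away, was that of another gene. Both stood in the last part of the MACS2 list. Of all protein-coding genes, 33.9% had at least 1 MACS2 peak by the same rule.

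**Figure D2:**
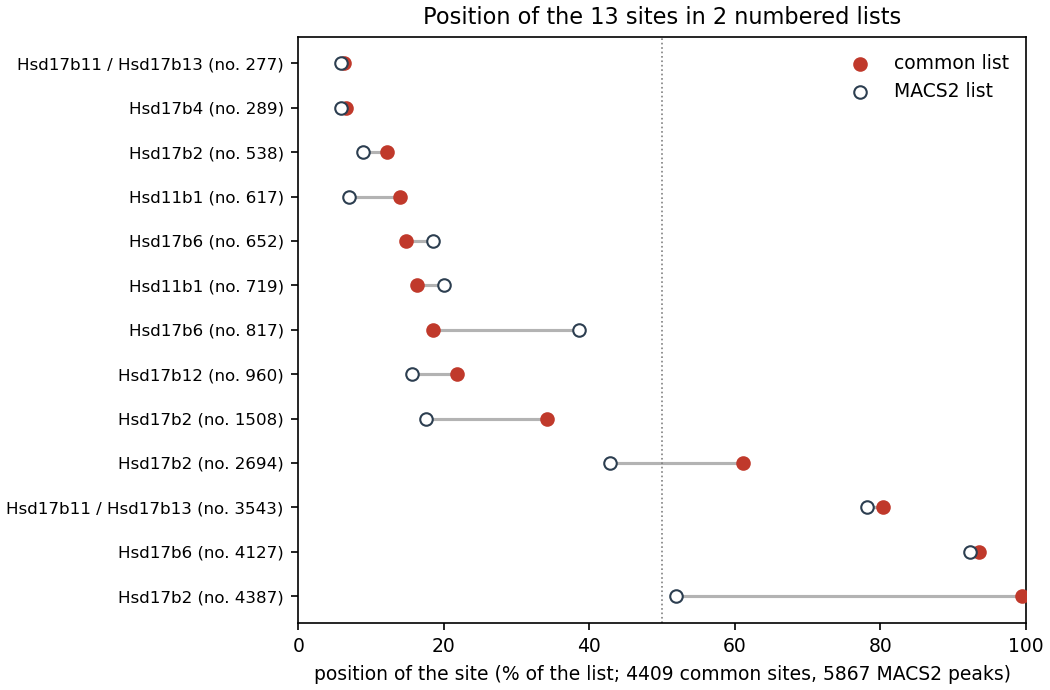
Position of the 13 OS in the common list (filled) and of the matching peak in the MACS2 list (open), in percent of the list with 0 at its head, 1 OS per row. The 9 OS with the lowest numbers lie within the first 34.2% of the common list and the first 38.6% of the MACS2 list, and no. 4387 at Hsd17b2 has the widest gap, 99.5% against 51.9%.

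Each of the 13 OS met a MACS2 peak, as the common list requires. Their numbers in the common list ran from 277 to 4387 with a median of 817, against 2205 over all OS. Of the 13 OS, 8 (61.5%) were among the first 1000 of the list, where 22.7% of all OS stand. Among these 8, no. 617, no. 817 and no. 960 had the TSS of a gene that is no member as the nearest. The OS are few and their genes were chosen by name, so this position is a description and was not tested. The numbers of the MACS2 peaks that met the 13 OS had a median of 1086, against 2195 over all OS. Widths ran from 149 to 320 bp with a median of 215 bp, against 190 bp, and 3 of the 13 (23.1%) had the width of exactly 320 bp that 25.6% of all OS share. Those 3, at Hsd17b2, Hsd17b6 and Hsd17b11, were the 3 OS with the highest numbers of the 13. Counted by distance, 6 of the 13 OS (46.2%) lay within 1000 bp of a protein-coding TSS, against 16.6% of all OS (730). Of the 3839 OS in or within 50 kb of any protein-coding gene, which are those the rule could reach, 19% lay that close. With 13 OS at genes chosen by name, nothing is read from this count. The 6 OS were the 4 at the starts of Hsd17b4, Hsd17b11, Hsd17b13 and Hsd11b1 and those at Mphosph6 and Alkbh3, while the proximal OS of Hsd17b2 lay 1003 bp from its TSS, just outside.

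**Figure D3:**
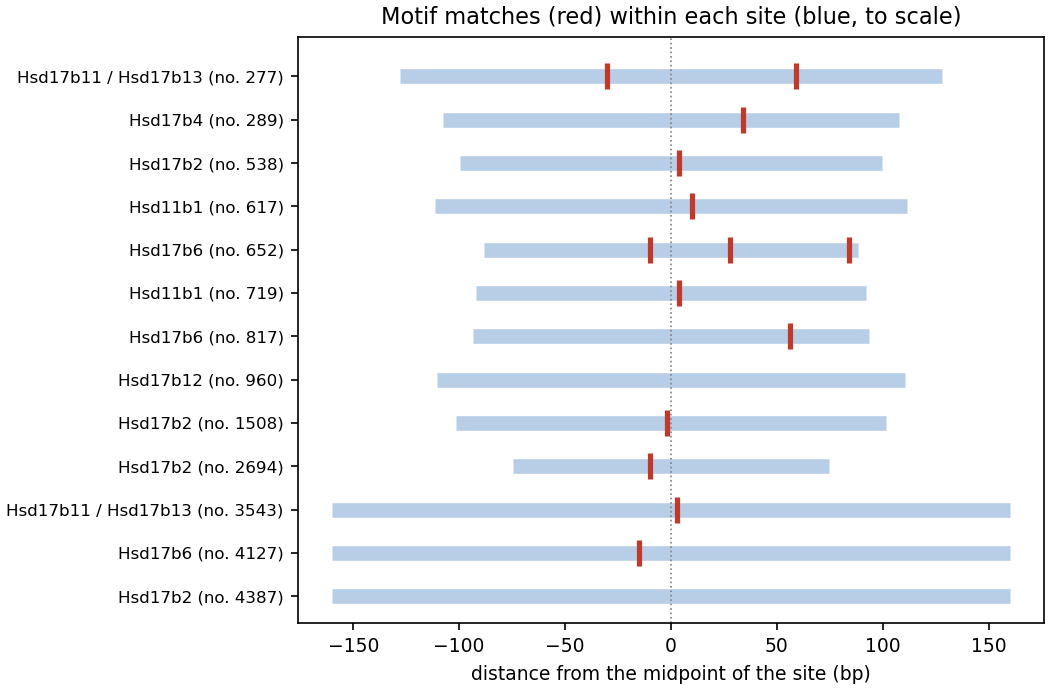
Position of each WGATAR match (red ticks) along the 13 OS (blue bars, to scale), in bp from the midpoint of the OS, 1 OS per row. In 11 OS there is at least 1 match and in no. 960 and no. 4387 none.

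A match to WGATAR was found in 11 of the 13 OS (84.6%), beside 82.9% of all OS. In equally wide windows shifted 5000 bp rightward, the shares were 5 of 13 (38.5%) for the members and 31.9% for all OS. At least 2 matches were present in 2 of the 13 OS (15.4%), the OS no. 277 and no. 652, against 34.7% of all OS. The match nearest to the midpoint was between 1.5 and 55.5 bp away, with a median of 9.5 bp in 11 OS, against 18 bp over the 3655 OS with a match. Both OS without a match had no GATA either, whereas 93.4% of all OS held GATA.

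The 14 matches in the 13 OS were AGATAA 8 times (57.1%), TGATAG 3 times (21.4%), TGATAA 2 times (14.3%) and AGATAG once. Of the 5734 matches in all OS, 44.6% were AGATAA, 11% TGATAG, 26.8% TGATAA and 17.5% AGATAG. With 14 matches these shares are imprecise and are given as a description.

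Among sequences of other factors, AGGTCA was held by 6 of the 13 OS (46.2%), at Hsd17b2, Hsd17b4, Hsd17b6 (no. 4127), Hsd17b13 and both OS of Hsd11b1. Of all OS 24.3% held it, and of the shifted windows 15.4% for the members and 13.6% for all. TGANTCA was held by 2 of 13 (15.4%) against 7.6%, and the C/EBP sequence TTGCNNAA by 1 of 13 (7.7%) against 12.7%. None of the 13 OS held TGTTTAC, read by forkhead factors, or CCGGAAG, read by ETS factors, which 6.3% and 4.9% of all OS held. At shares this low, 13 OS are too few to read anything from an absence. A match is a description of the letters and does not show that a factor was bound.

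The promoters of the 8 genes were compared in the same way, from 250 bp upstream to 50 bp downstream of the 5′ end. WGATAR was present in those of Hsd17b2, Hsd17b7, Hsd17b11 and Hsd17b13, 4 of 8, against 5856 of 21119 promoters (27.7%). A common OS overlapped 2 of these 4, at Hsd17b11 and Hsd17b13, and a MACS2 peak overlapped that of Hsd17b7. For Hsd11b1 only the distal TSS enters these counts. The windows at its internal TSS that the OS no. 719 overlapped held 2 and 1 WGATAR matches. GC content ran from 46.3% at Hsd17b13 to 65.7% at Hsd17b7, around the median of 55% over all promoters, and the observed to expected ratio of CpG from 0.14 at Hsd11b1 to 1.25 at Hsd17b12, around 0.53.

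The same rule was applied to 35 further genes of steroid metabolism, listed by name, of which 34 were in the annotation and 10 (29.4%) had a common OS. This share is near the 27.7% of all protein-coding genes, so no trait of the listed genes is read from it. None of their 22 OS was an OS of the 8 genes. Cyp17a1, the enzyme that makes androgen precursors, had 3 OS, of which no. 151 lay 239 bp upstream of its TSS with 4 WGATAR matches. H6pd, which supplies Hsd11b1 with its cofactor in the endoplasmic reticulum, had 2 OS, the first of them no. 209, located 19.6 kb downstream of its TSS with 3 matches. Rdh9 had 7 OS and Rdh16 had 6 in the retinol dehydrogenase cluster on the chromosome of Hsd17b6, with some OS counted at both genes. The lowest number at both was no. 17, which was nearest to the TSS of Rdh1. Of these OS, 1 at Rdh9 and 0 at Rdh16 had that gene's own TSS as the nearest.

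The remaining listed genes with an OS were Hsd17b14 with 3, Srd5a1, a steroid reductase, with 2, and Akr1c6, Akr1c14, Akr1d1 and Dhrs9 with 1 each. At Hsd17b14 none of the 3 was nearest to its own TSS. At Cyp17a1, H6pd and Srd5a1 only 1 OS each had the gene's own TSS as the nearest. None of the 7 Hsd3b genes had a common OS. Among them Hsd3b7, an enzyme of bile acid synthesis, had 2 MACS2 peaks. In total, 5 of the 24 genes without a common OS, Hsd3b7 among them, had a MACS2 peak. Among 5 steroid receptors, Esr1, the estrogen receptor, had 1 OS (no. 1768), and Nr3c1, the glucocorticoid receptor, had 2. Of the OS at Nr3c1, 1 had that gene's own TSS as the nearest. So short a list of receptors allows no more than a count.

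**Figure D4:**
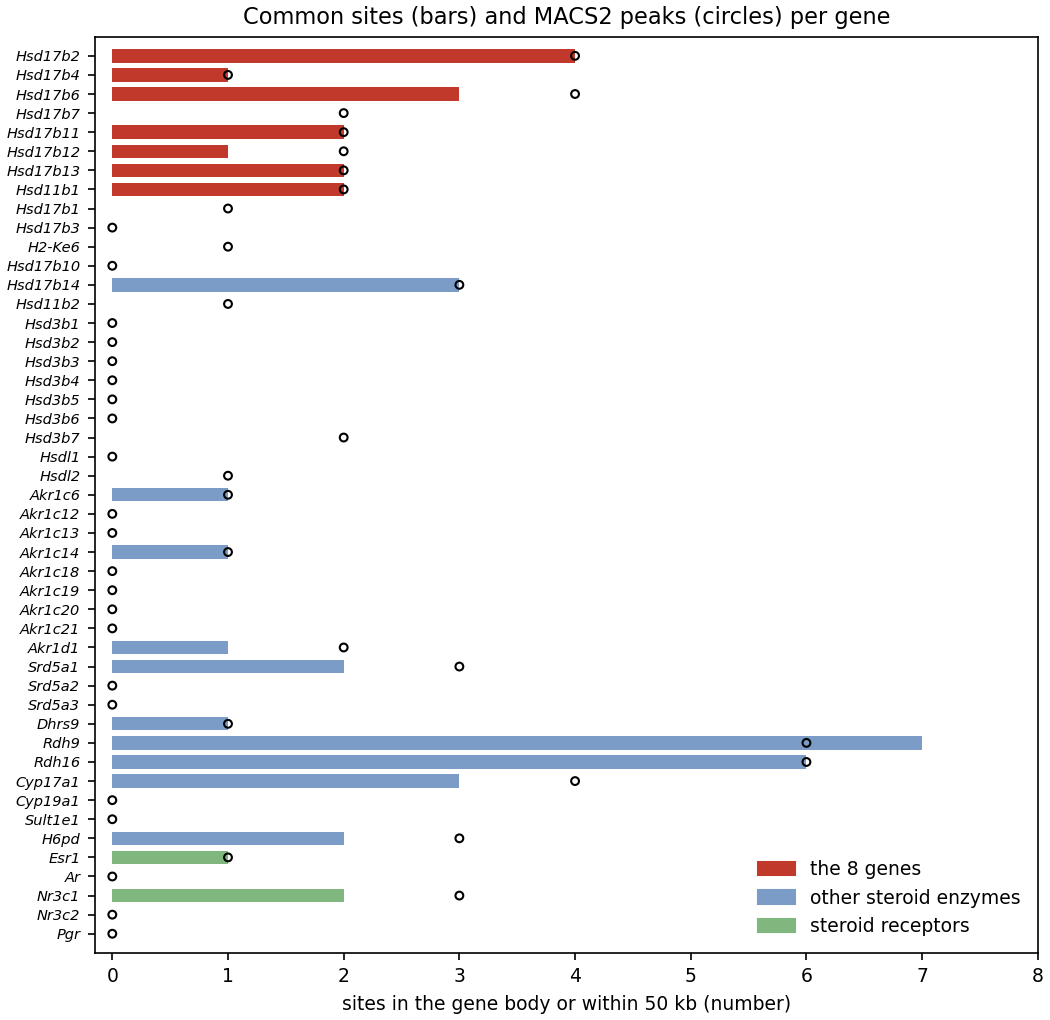
Number of common OS (bars) and MACS2 peaks (circles) in the gene body or within 50 kb for the 8 genes (red), the further enzymes (blue) and the receptors (green), 1 gene per row. Hsd17b2 has 4, Rdh9 and Rdh16 have 7 and 6 with some OS counted at both, and 24 of the 34 further enzymes have no bar.

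At the limit of the rule, the farthest OS inside it were those at 42.9 kb from Hsd17b2 (no. 1508), 44.6 kb from Hsd17b13 (no. 3543) and 45.1 kb from Hsd17b6 (no. 817). Just outside were an OS at 52.1 kb from Hsd11b1 (no. 482) and one at 53.7 kb from Hsd17b6 (no. 194). The 3 protein-coding genes below were nearest to Hsd17b2 in having 1 OS in the gene body with a number near 2694, Eltd1 (no. 2692), Sec63 (no. 2697) and Prss32 (no. 2701). This likeness is over 2 values of 1 pooled sample, and 1338 other genes also had 1 OS in their body.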

How the data were processed

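Peaks were analysed as deposited by the authors, who by the study's methods aligned reads to mm9, called peaks with SPP and MACS2 and intersected both lists. The submitters' processing notes name Bowtie 0.12.7, MACS2 2.0.10 and bedtools 2.16.1. The deposited score column is 1000 for every peak. The other deposited columns used are the chromosome, the start and end positions and the peak name, which ends in the number of the peak in its list. Sequence came from NCBI Build 37, which is mm9, and genes from GENCODE M1. Positions are 1-based. Peaks overlapped when they shared at least 1 bp, and a gene was given every OS whose midpoint lay in its body or within 50 kb. Motifs were matched exactly on both strands. Every WGATAR match contains GATA, and the composite with CTG contains GATAA. No test was made, since there was 1 pooled ChIP sample. The precision of a share over 13 OS is given once below, as a 95% Wilson interval that covers counting only. The named genes were the members, the genes nearest to their OS, listed steroid genes with an OS, and the 3 genes most like Hsd17b2. The cell type markers named as examples, Hsd3b7 and the Hsd3b genes as a group fall outside this rule and were named after their values were seen. The members and lists were chosen with earlier results of these data known. Alternatives were another reach, gene extent, peak list, overlap and motif window. Code for overlaps and motifs was tested on simulated data and returned the known answer in 400 of 400 cases each. Python 3.11.15, numpy 2.4.6 and matplotlib 3.10.9 were used. Input reads were not analysed here.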

Additional observations from a re-analysis of the deposited data

Results flagged for a closer look

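Peaks of the MACS2 list that met no common OS were counted at the 8 genes, since the comparisons above rest on the common list. Hsd17b7 had 2, Hsd17b6 had 1 and Hsd17b12 had 1. At Hsd17b6 the peak (no. 4608, 742 bp) lay 34.1 kb downstream of the TSS and held TGATAG at 2 places. At Hsd17b12 it (no. 4025, 468 bp) lay in intron 8, 113.5 kb downstream of the TSS, and held TGATAA. Both Hsd17b7 peaks are described above. With numbers of 4025, 4608, 4980 and 5689, these 4 peaks stood in the latter part of the 5867 in the list.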

How the results depend on the processing

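The gene body alone gave 3 OS at 3 of the 8 genes, 1 of them at Hsd17b2, where 7.67% of protein-coding genes had an OS and 100% of the member OS held WGATAR. A reach of 10 kb gave 8 OS, with 13.7% of genes. The share of genes was 40% at 100 kb, 29.2% with the SPP list, 33.9% with the MACS2 list, 16% with the leading 50% of the common list, and 12.3% when the nearest TSS had to be that of the gene. The leading 50% of the list kept 2 OS at Hsd17b2. A reciprocal overlap of 50% left 46.2% of the SPP peaks at the members with a MACS2 peak, and 18% of all SPP peaks. With 50% of the SPP peak alone required, the shares were 100% and 91.6%. The MACS2 peaks that met the member OS were 323 to 1114 bp wide, against 149 to 320 bp for the OS. In all, 37 of 51 values stayed near the main value. The limit was 1.5 times for counts, such as 9 and 17 OS against 13, and the 95% Wilson interval for shares. These limits are wide for 13 OS, and the common list carries the SPP coordinates, so this tally is no measure of robustness. The WGATAR share of 84.6% had a 95% interval of 57.8% to 95.7%. No paired analysis was possible because the labels give 1 ChIP sample. Depth per peak is unknown, so strength was not compared.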
